A study of Homo sapiens with 12 samples.

Results

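The aminoacyl tRNA synthetase genes were followed in U937 cells given antibodies to LILRB3. Members were the symbols of either deposited table made of 1 letter, ARS and 1, 2 or 3, together with EPRS1, FARSA, FARSB, AIMP1 and AIMP2. The table of the antagonist experiment held 40 members among 27825 symbols, and the table of the agonist experiment held 2, LARS2 and WARS1, among 904. U937 is a human monocytic leukaemia line, and LILRB3 is an immune receptor with an inhibitory tail found on myeloid cells. All 4 groups received 50 ng/mL interferon gamma first and then an antibody for 72 hours, at a concentration that the labels write as 5 mg/ml. Set 1 compared a LILRB3 antagonist antibody with IgG, set 2 compared a LILRB3 agonist antibody with its own IgG, and each group had 3 libraries. No group without interferon gamma was part of the design. Whether the 3 libraries of a group came from separate cultures is not stated. The p-values therefore describe the spread between these libraries alone, and it may be technical. In bulk RNA of this kind, fewer cells and less RNA per cell cannot be told apart.

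Aminoacyl tRNA synthetases join each amino acid to its tRNA, the step at which the genetic code is read into protein. Separate nuclear genes encode most cytosolic enzymes (symbols ending in 1) and mitochondrial enzymes (ending in 2). GARS1 and KARS1 each serve both compartments, EPRS1 carries the glutamyl and prolyl activities in 1 chain, FARSA and FARSB are the subunits of cytosolic phenylalanyl-tRNA synthetase, and TARS3 is a further threonyl enzyme of the cytosol. Several cytosolic enzymes assemble with the scaffold proteins AIMP1 and AIMP2 into the multi-tRNA synthetase complex. By structure the enzymes form class I and class II. Many cytosolic members are targets of ATF4, the transcription factor of the amino acid response, which binds the CARE element, and WARS1 is a classical target of interferon gamma.

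Promoter sequences are shown because the CARE element is the feature through which the amino acid response acts on several of these genes. Windows of 250 bases before to 50 after the start (RefSeq, GRCh38.p14) matched 32 of the 40 members by symbol. AARS2, LARS1, TARS3, VARS1, VARS2 and YARS1 were among those with no entry. The letters TGATGNAA, searched on both strands, stood in windows of 8 of these 32 members (25%) and of 4.46% of 27305 genes. In 6 of the 8 the match was the full TGATGCAA, which 1.08% of all genes had. The capitals mark the match, written on the gene's own strand with the flanking bases on each side, so that a match on the other strand reads as its reverse complement. A match describes these letters and does not show binding.
AARS1 (chr16:70289666-70289713, minus strand): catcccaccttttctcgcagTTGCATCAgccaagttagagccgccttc
CARS1 (chr11:3057398-3057445, minus strand): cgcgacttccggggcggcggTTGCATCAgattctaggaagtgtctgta
GARS1 (chr7:30594825-30594872, plus strand): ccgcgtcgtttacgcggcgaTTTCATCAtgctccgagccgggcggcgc
IARS1 (chr9:92293683-92293730, minus strand): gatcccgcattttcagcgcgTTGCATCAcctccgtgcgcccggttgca
MARS1 (chr12:57488044-57488091, plus strand): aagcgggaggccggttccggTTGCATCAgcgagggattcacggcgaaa
NARS1 (chr18:57621795-57621842, minus strand): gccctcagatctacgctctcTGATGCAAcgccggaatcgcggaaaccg
TARS1 (chr5:33440947-33440994, plus strand): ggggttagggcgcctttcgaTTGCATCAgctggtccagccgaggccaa
YARS2 (chr12:32756067-32756114, minus strand): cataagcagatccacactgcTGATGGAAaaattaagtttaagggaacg

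The GAS letters TTCNNNGAA, the element of the interferon gamma response, stood in windows of 5 of the 32 members (15.6%, against 9.38% of all genes): CARS1, PARS2, TARS1, WARS1 and WARS2. The WARS1 match is shown because this gene responds to interferon gamma, which every library received. It lay in the downstream of the 2 WARS1 windows, starting 142 bases before that start.
WARS1 (chr14:100375461-100375509, minus strand): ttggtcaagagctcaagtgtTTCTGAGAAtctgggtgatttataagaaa
The MYC-type E-box CACGTG, also searched on both strands, stood in windows of 5 members, AIMP2, CARS2, EARS2, IARS1 and MARS2 (15.6%, against 8.77% of all genes).

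In set 1 the counts with a gene symbol summed to between 17035334 and 18820312 per library. The myeloid markers CD33, ITGAM, SPI1, LYZ, CTSG and CD4 had at least 253 counts in each library of set 1, while MPO had 2 to 17. Of 7 markers of other cell types, MS4A1, HBB, EPCAM and PPBP were at 0 in all 6 libraries, CD3E had at most 5 counts and COL1A1 at most 35. The summed counts of all 7 were 178 to 209 in IgG and 203 to 222 in antagonist libraries. Counts of IgG library 1 differed more from its group than the others did (chi-square per degree of freedom 11 and 19.9, against 4.54 between the others), and so did agonist library 1 (25.1 and 26.7, against 3.75). Library numbers follow column order and pair nothing.

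With the antagonist antibody, 19 of the 40 synthetase genes fell and 0 rose at an edgeR adjusted p of 0.05. These were 13 of 21 cytosolic enzymes, 5 of 17 mitochondrial enzymes and AIMP2. Across all 13778 genes tested, 20.5% fell and 15.6% rose. All 40 members passed the filter on low counts. The changes were small: the median log2 fold change of the 40 members was -0.19, and that of all genes was -0.01. The estimate was below zero for 35 members, for all 21 cytosolic enzymes, and for 12 of 17 mitochondrial ones. Without scaling for composition (library totals in place of TMM), 8 members were called lower and 2 higher, MARS2 (0.22) and VARS2 (0.31), while the share of all genes called lower became 11.6% and the share of higher calls among all calls went from 43.1% to 65.4%. The count of members called was 15 without IgG library 1, 12 without IgG library 2, 10 without antagonist library 1 and 11 without antagonist library 3. With the TMM scaling of all 6 libraries, 1 member was higher at an unadjusted p under 0.05 (VARS2), and DESeq2 called 0 higher and 13 lower.

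**Figure D1:**
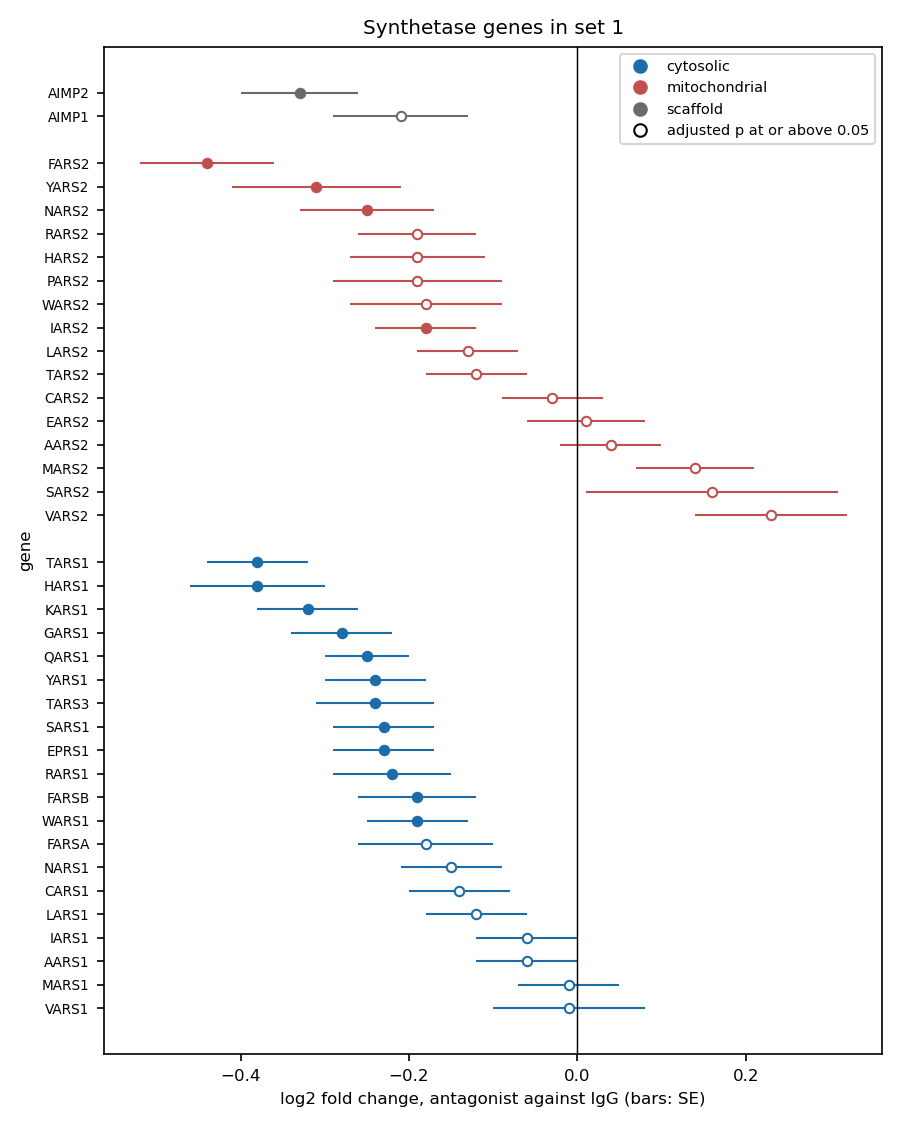
Log2 fold change of 38 synthetase and scaffold genes, antagonist against IgG in set 1 (x axis; bars are SE, 3 libraries per group), by compartment; filled points passed an adjusted p of 0.05. The cytosolic enzymes drawn lie left of zero, from -0.38 to -0.01, and mitochondrial enzymes spread from -0.44 (FARS2) to 0.23 (VARS2).

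Among the cytosolic enzymes, the threonyl, histidyl and lysyl synthetases were among those that fell the most. TARS1 had 147, 144 and 144 CPM (TMM-scaled counts as CPM) in the IgG libraries and 108, 118 and 109 CPM in the antagonist libraries. The groups did not overlap, and the log2 fold change was -0.38 ± 0.06 (SE, adjusted p = 0.00069). HARS1, the histidyl enzyme, had 48.3, 44.2 and 45.4 CPM with IgG and 32.8, 38.8 and 34.7 CPM with the antagonist. Its log2 fold change was -0.38 ± 0.08 (adjusted p = 0.00304), again with separate groups. Beside this, 72.5% of members and 49% of all tested genes had groups that did not overlap.

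GARS1 and KARS1, which supply both compartments from 1 gene each, both fell. KARS1 had 183, 173 and 187 CPM with IgG and 138, 152 and 145 CPM with the antagonist (log2 fold change -0.32 ± 0.06, adjusted p = 0.00188). GARS1 had 283, 269 and 276 CPM with IgG and 222, 231 and 227 CPM with the antagonist (log2 fold change -0.28 ± 0.06, adjusted p = 0.00219). Neither gene's groups overlapped. Of the other cytosolic enzymes, QARS1 (-0.25), TARS3 (-0.24), YARS1 (-0.24), SARS1 (-0.23), RARS1 (-0.22) and FARSB (-0.19) also fell. RARS1 lost its call in 8 of 12 other settings and TARS3 in 7, while SARS1 and YARS1 lost theirs in 1, library totals. FARSB passed by the least margin (adjusted p = 0.05 after rounding), lost its call in 9 of 12 other settings, and its groups overlapped, with 64.3 CPM in IgG library 3 and 64.9 CPM in antagonist library 2. The partner subunit FARSA had a similar estimate of -0.18 ± 0.08 but did not pass (adjusted p = 0.103), with IgG libraries at 293, 346 and 375 CPM. The 7 other cytosolic enzymes that did not pass were NARS1 (-0.15), CARS1 (-0.14), LARS1 (-0.12), AARS1 (-0.06), IARS1 (-0.06), MARS1 (-0.01) and VARS1 (-0.01). AARS1, IARS1, MARS1 and VARS1 were above zero with library totals in place of TMM, and MARS1 and VARS1 also with DESeq2 size factors and in other settings.

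WARS1, the tryptophanyl enzyme and interferon gamma target, had 200, 198 and 209 CPM with IgG and 168, 181 and 182 CPM with the antagonist. The groups were separate and the log2 fold change was -0.19 ± 0.06 (adjusted p = 0.0211). Its call was lost in 6 of 12 other settings, among them library totals (-0.11) and the omission of IgG library 2 or 3 or antagonist library 1 or 3. Its mitochondrial counterpart WARS2 had 19.7, 20.3 and 20.3 CPM with IgG and 17, 19 and 16.9 CPM with the antagonist. That estimate of -0.18 ± 0.09 did not pass (adjusted p = 0.115), although the groups did not overlap.

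Of the multi-tRNA synthetase complex, 5 of the 8 enzymes and 1 of the 2 scaffolds among the members fell, beside 20.5% of all tested genes. Those that fell included KARS1, QARS1, EPRS1 and RARS1, while IARS1, LARS1 and MARS1 did not pass. The median log2 fold change was -0.23 for the 8 enzymes of the complex and -0.19 for the 13 cytosolic enzymes outside it, of which 8 fell. EPRS1 had 413, 397 and 401 CPM with IgG and 335, 357 and 343 CPM with the antagonist, with separate groups and a log2 fold change of -0.23 ± 0.06 (adjusted p = 0.00788). EPRS1 no longer passed with library totals or without antagonist library 1. AIMP2, the scaffold that holds KARS1 in the complex, had 33, 33.2 and 30.8 CPM with IgG and 25.7, 25.8 and 25.9 CPM with the antagonist. The 3 antagonist libraries were nearly equal and lay below every IgG library (log2 fold change -0.33 ± 0.07, adjusted p = 0.00452). AIMP1 had 62.2, 52.7 and 56.9 CPM with IgG and 52.7, 50.3 and 45.6 CPM with the antagonist, and did not pass (-0.21 ± 0.08, adjusted p = 0.0541). The groups of AIMP1 did not overlap, but IgG library 2 and antagonist library 1 differed by less than the digits shown.

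**Figure D2:**
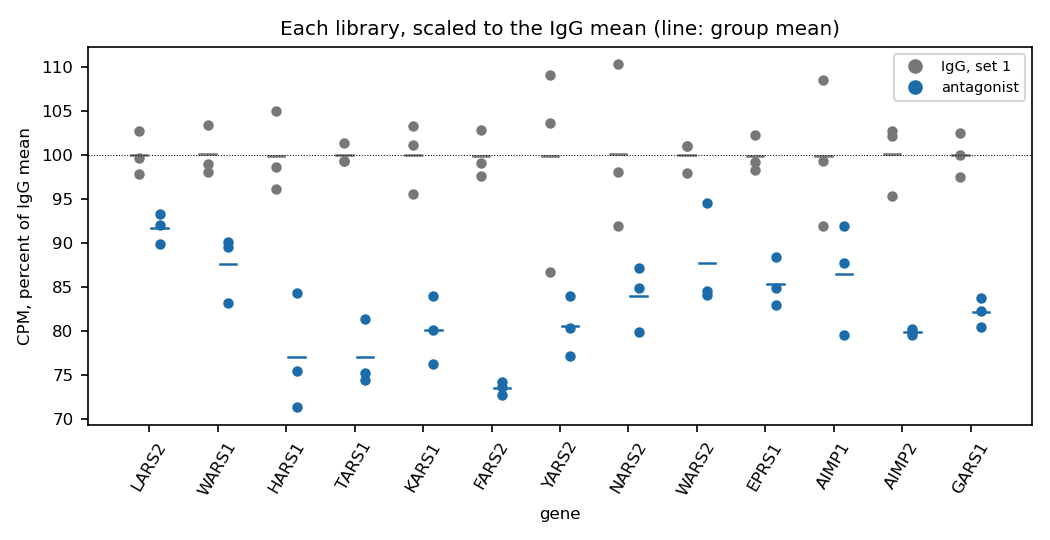
CPM of 13 synthetase and scaffold genes in each library of set 1 as a percent of the gene's IgG mean (y axis, which does not start at 0; lines are group means of 3 libraries). For FARS2, TARS1 and AIMP2 every antagonist library lies well below every IgG library, while IgG libraries of YARS2, NARS2 and AIMP1 are more spread.

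The mitochondrial enzymes that fell included FARS2, YARS2, NARS2 and IARS2. FARS2, the mitochondrial phenylalanyl enzyme, had the lowest log2 fold change of all 40 members, -0.44 ± 0.08 (adjusted p = 0.00188). It had 20.7, 21.5 and 20.4 CPM with IgG and 15.2, 15.4 and 15.5 CPM with the antagonist, so the groups lay far apart beside their spread. YARS2, the mitochondrial tyrosyl enzyme, had 22.7, 23.9 and 19 CPM with IgG and 17.6, 16.9 and 18.4 CPM with the antagonist (-0.31 ± 0.10, adjusted p = 0.0263). NARS2, for asparagine, had 39.5, 35.1 and 32.9 CPM with IgG and 28.6, 31.2 and 30.4 CPM with the antagonist (-0.25 ± 0.08, adjusted p = 0.0302). The groups of all 3 genes were separate, YARS2 by the least, since its IgG library 3 stood at 19 CPM and its antagonist library 3 at 18.4 CPM. IARS2 changed by -0.18 ± 0.06 (adjusted p = 0.0427).

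FARS2 was the mitochondrial enzyme that stayed past the threshold in every one of 12 other settings. IARS2 lost its call in 9 of them, and YARS2 and NARS2 in 8 each. The mitochondrial count was 1 when IgG library 2 was left out, and also when antagonist library 1 or 3 was. The 12 mitochondrial enzymes that did not pass had estimates from -0.19 to 0.23. VARS2 was at the top of this range, with 14.1, 15.7 and 16.9 CPM in IgG and 18.7, 17.9 and 18 CPM in antagonist libraries (0.23 ± 0.09, adjusted p = 0.0765). SARS2 (0.16), MARS2 (0.14), AARS2 (0.04) and EARS2 (0.01) were also above zero and did not pass. SARS2 had 15.6, 21.6 and 25.8 CPM in the IgG libraries, a wider spread than its antagonist libraries at 23, 23.9 and 23.4 CPM. Its estimate was 0.01 without IgG library 1 and 0.34 without IgG library 3, where it passed (adjusted p = 0.0388). VARS2 passed there too (0.30, adjusted p = 0.0397).

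The 2 compartments were set side by side. The share of members that fell was 61.9% for cytosolic and 29.4% for mitochondrial enzymes, beside 20.5% of all tested genes. The median log2 fold changes were close, -0.22 and -0.18, and the difference of the medians, -0.05, became -0.02 without GARS1 and KARS1. Counts were lower for the mitochondrial enzymes: per kilobase of transcript, their median IgG level was 14.2 CPM, between 3.82 (VARS2) and 63.6 (IARS2), against a median of 65.5 CPM per kilobase for cytosolic enzymes, between 10 (TARS3) and 212 (QARS1). Summed over the genes, cytosolic enzymes took 0.461%, 0.449% and 0.449% of counts in the IgG libraries and 0.409%, 0.431% and 0.414% in the antagonist libraries, which did not overlap. Mitochondrial enzymes took 0.0985%, 0.0974% and 0.0963% with IgG and 0.0954%, 0.0982% and 0.0958% with the antagonist, which did. The ratio of cytosolic to mitochondrial counts was 4.68, 4.61 and 4.66 with IgG and 4.29, 4.39 and 4.32 with the antagonist. These sums are shares of library totals, with no TMM scaling, weight each gene by its counts and were not tested.

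**Figure D3:**
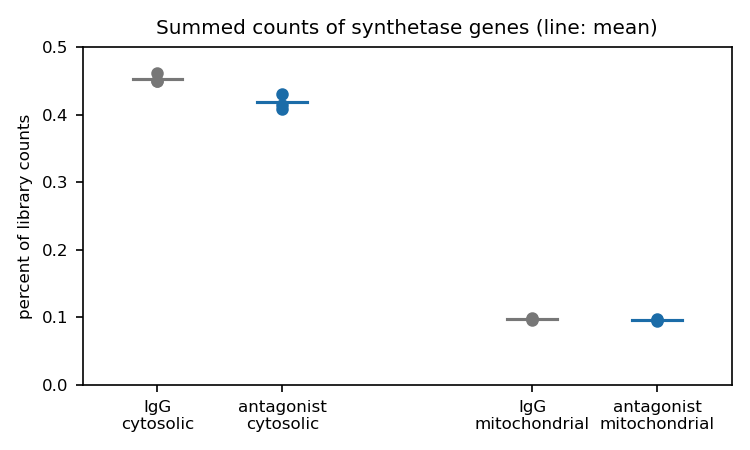
Percent of all counts of a library taken by cytosolic and by mitochondrial synthetase genes in set 1 (y axis; points are libraries, lines are means of 3). The cytosolic share is 0.449% or more in IgG and 0.431% or less in antagonist libraries, while the mitochondrial shares of the groups overlap.

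For 14 amino acids both enzymes had a gene of their own and could be compared as pairs. Both members of the pair fell in 2 pairs, among them tyrosine (YARS1, YARS2). The cytosolic enzyme alone passed in 5 pairs (HARS, RARS, SARS, TARS, WARS), the mitochondrial alone in 2 (IARS, NARS), and neither in 5 (AARS, CARS, LARS, MARS, VARS). In 0 pairs were the 2 enzymes called in opposite directions. The cytosolic estimate was below the mitochondrial one in 10 of 14 pairs, with the widest gap for serine, -0.23 for SARS1 against 0.16 for SARS2. That gap rests on IgG library 1, without which the values were -0.19 and 0.01, closer than those of the TARS pair (-0.34 and -0.08) and the VARS pair (-0.09 and 0.19). A call in 1 enzyme of a pair and not the other does not show that they differ, and that difference was not tested. In IgG libraries the level per kilobase of transcript was higher for the cytosolic enzyme in 12 pairs, by up to 13.7 times (YARS1 over YARS2). IARS1 and IARS2 were nearly equal (ratio 0.992), and for cysteine the mitochondrial enzyme was the more abundant (ratio 0.42, CARS1 over CARS2).

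**Figure D4:**
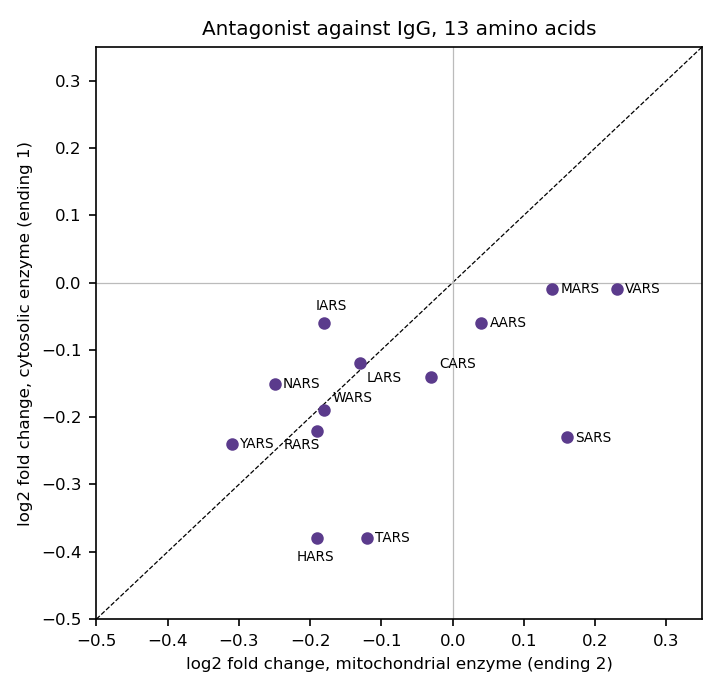
Log2 fold change (antagonist against IgG) of the mitochondrial enzyme (x axis) and the cytosolic enzyme (y axis) for 13 amino acids; the dashed line marks equal values. In 9 of these pairs the point lies below the line, with SARS (-0.23 against 0.16) the farthest from it when all 6 libraries are used.

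The members shared further features that the selection did not use. By structural class, 8 of 11 class II and 5 of 10 class I cytosolic enzymes fell, with medians of -0.24 and -0.17. For mitochondrial enzymes these counts were 3 of 8 and 2 of 9. Of the cytosolic enzymes with a CARE match in the promoter window shown above, 2 of 7 fell, TARS1 and GARS1 (median -0.14). Of the 9 cytosolic enzymes whose windows lacked it, 8 fell (median -0.23). Among members with a GAS match 2 of 5 fell, TARS1 and WARS1, and among those with an E-box 1 of 5, AIMP2. Of all tested genes 20.5% fell, and the E-box count (1 of 5) and the class I mitochondrial count (2 of 9) were near that share. These are counts of a few genes with no test of the difference, and nothing is called particular to a class or motif.

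GC content moved with the fold changes. Spearman's rho between the GC content of the transcript and the fold change was 0.31 over the 40 members and 0.28 over 13361 tested genes. These genes share libraries and depth. The 5 members with at least 59% GC (AARS2, FARSA, SARS2, VARS1 and VARS2, a limit chosen after their values were seen) had a median of 0.04 and 0 calls, while 19 of the other 35 fell. With an offset for transcript length and GC content in each library, 25 members passed, 16 of them among the 19 called before, and the share of all genes called lower also went up, from 20.5% to 25.9%. Among those that passed only with the offset were VARS1 (-0.24), FARSA (-0.24), AARS1 (-0.16), AARS2 (-0.15) and LARS2 (-0.24), and RARS1 (-0.05), FARSB (-0.11) and NARS2 (-0.15) no longer passed. The counts with the offset were 16 cytosolic and 8 mitochondrial enzymes lower, with medians of -0.22 and -0.15, and 0 higher.

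Some members share reads or exons with neighbours, and the use of strand in counting is not given in the sources used here. In GENCODE 29, 71.9% of the 50-base windows of the SARS2 transcript also lie in an overlapping read-through gene on the same strand. Exons of VARS2 overlap GTF2H4 on the same strand by 1858 bases. HARS1 and HARS2 start back to back on chromosome 5 (140673905 to 140691370 and 140691455 to 140699305, GRCh38), and 658 exon bases of HARS1 overlap HARS2 or WDR55. MARS1 overlaps DDIT3 and ARHGAP9 on the opposite strand (937 bases), and AIMP2 overlaps EIF2AK1 (532 bases). Exons of WARS1 overlap WDR25 and an antisense gene on the opposite strand (672 bases), and those of YARS1 overlap S100PBP (396 bases). Further members had overlaps too. Values of these genes are uncertain to that extent. FARS2, TARS1, EPRS1, AARS1 and IARS1 had no exon overlap with another gene.

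In set 2, the agonist table listed 2 members, and both were lower than with IgG. WARS1 had 1150, 1050 and 1060 CPM of listed counts in IgG libraries and 873, 810 and 797 CPM in agonist libraries (log2 fold change -0.40 ± 0.06, edgeR adjusted p = 0.000218). LARS2, the mitochondrial leucyl enzyme, had 155, 152 and 150 CPM of listed counts with IgG and 106, 105 and 116 CPM with the agonist (-0.48 ± 0.10, adjusted p = 0.000813). Neither gene's groups overlapped. Without agonist library 1 the values were -0.44 for WARS1 and -0.47 for LARS2. Of the 904 listed genes, 44.2% were called lower. Nothing is read from the members' calls or separate groups, because the table holds genes picked for change on these libraries. Listed fold changes had a gap around zero, from -0.25 to 0.12. CPM of listed counts cannot be set beside the CPM of set 1, and the zero point of fold changes is uncertain, since 903 of the 904 listed genes passed. The other 38 members were not analysed here under the agonist.

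LARS2 had 55.2, 56.9 and 54.2 CPM with IgG and 49.8, 51 and 51.7 CPM with the antagonist in set 1, which did not pass (-0.13 ± 0.06, adjusted p = 0.13). Whether the antibodies acted differently on these genes was tested as the interaction of set and treatment over shared genes, each set scaled on those genes. Agonist minus antagonist was -0.42 ± 0.10 for LARS2 (adjusted p = 0.00261) and -0.27 ± 0.08 for WARS1 (adjusted p = 0.0103), among 58.8% of 901 genes that passed. Because set 2 lists genes picked for change on its own libraries, these differences are given as values and nothing is read from their calls. They carry the same uncertain zero point, and set and antibody cannot be told apart.

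**Figure D5:**
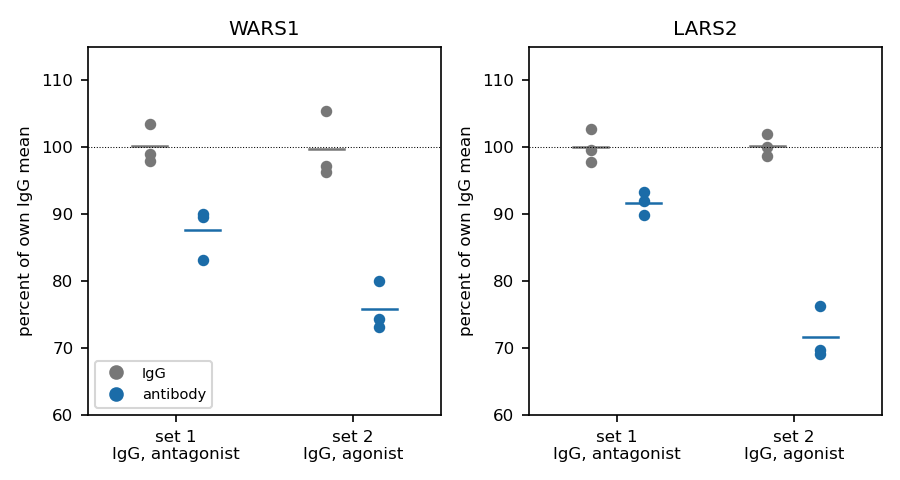
WARS1 and LARS2 in each library as a percent of the mean of the set's own IgG libraries (y axis, which does not start at 0; lines are means of 3 libraries). Agonist libraries of LARS2 lie lower against their IgG (106 to 116 of about 152 CPM of listed counts) than antagonist libraries against theirs (49.8 to 51.7 of about 55.4 CPM).

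Counts for genes that work beside the synthetases are to be read against the 20.5% of all tested genes that fell and the 15.6% that rose with the antagonist. Nothing is called particular to these lists. Of 12 tested partners of tRNA charging, 4 fell and 0 rose (median -0.16; at an unadjusted p under 0.05, 4 of the 12 passed). EEF1A1, the elongation factor that carries charged tRNA to the ribosome, changed by -0.44 ± 0.06, the D-aminoacyl-tRNA deacylases DTD1 by -0.36 ± 0.06 and DTD2 by -0.33 ± 0.11. Of 26 tRNA modification enzymes 2 fell and 3 rose (median -0.03). The mitochondrial methyltransferase component TRMT10C fell by 0.46 on the log2 scale, while the deaminase subunit ADAT2 (0.42 ± 0.08) and the mitochondrial GTPase GTPBP3 (0.34 ± 0.08) rose. Reads of EEF1A1 can be shared with its many near copies.

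Of 26 tested genes of the amino acid response, 11 fell and 0 rose with the antagonist (median -0.19; at an unadjusted p under 0.05, 15 passed in either direction). ATF4 itself had 365 ± 1.34 CPM with IgG and 325 ± 6.45 CPM with the antagonist (SD, n = 3; log2 fold change -0.16 ± 0.05, edgeR adjusted p = 0.0306). It was named after its value was seen. The cysteine synthesis enzyme CTH (-0.43 ± 0.09) and the serine synthesis enzymes PSPH (-0.42 ± 0.09) and PSAT1 (-0.36 ± 0.07) fell the most on this list. Of 17 amino acid sensing genes 5 fell and 2 rose (median -0.08), among them the initiation factor subunit EIF2S1 (-0.37 ± 0.07), the GCN2 regulator IMPACT (-0.34 ± 0.10) and the lysosomal anchor LAMTOR1 (-0.25 ± 0.08). Of 12 listed interferon gamma targets beside WARS1, 8 were tested in set 1, where 2 fell and 2 rose. GBP1, IDO1, CXCL9 and CXCL10 were not among the tested genes of set 1. Some tested targets had low counts, with 27 to 40 per library for TAP1 and 59 to 90 for SOCS1. PSMB9 (-0.66 ± 0.21) was among those that fell, and CIITA (0.66 ± 0.12) and NLRC5 (0.48 ± 0.07) rose. PSMB9 had 54 to 126 counts per library, and its groups overlapped. GBP2 had 68, 72 and 67 counts in the IgG libraries of set 1, against 3038, 2386 and 2674 in those of set 2. For IRF1 these were 512, 439 and 402 against 2952, 2621 and 2619. The cause of this difference between the sets was not tested. In the agonist table the tRNA exporter XPOT (-0.31 ± 0.06), asparagine synthetase ASNS (-0.44 ± 0.09) and SHMT2 (-0.34 ± 0.05) were listed as lower, as was MTOR (-0.47 ± 0.10). MTOR had 346 CPM of listed counts in agonist library 1, against 454 and 475 in libraries 2 and 3. Of the interferon gamma targets listed there, CXCL10 was lower (-0.60 ± 0.09) and IRF1 (0.19 ± 0.06) and GBP2 (0.17 ± 0.06) were higher. With the antagonist, XPOT (-0.07), ASNS (0.07) and MTOR (0.06) were not called, while SHMT2 fell (-0.27).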

How the data were processed

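Each set has 1 deposited table of raw counts, whole numbers by gene symbol, as the authors left them. HISAT2, Cufflinks and hg38 are named per the submitters' processing notes. Their versions and roles, the counting program, annotation and strand use: not given in the sources used here. Column names give the group and no replicate number. In set 1, 570 of 28395 rows had no symbol (between 0.0678% and 0.105% of counts) and stayed out. The test, on each whole table, was that of edgeR 4.0.16 (R 4.3.3): filterByExpr, TMM, robust quasi-likelihood test, Benjamini-Hochberg adjustment over all tested genes. SE was taken from the fold change and the F statistic. Levels per kilobase used the principal GENCODE 29 transcript. On simulated counts for set 1 (27825 genes), 88.5% of 200 genes changed 1.5-fold were recovered, with 13 false calls. The simulation gave every gene the same dispersion, changed well-counted genes only and held no outlying library. Its changes (median estimated log2 size 0.582) were larger than that of any member (lowest -0.44, median -0.19). It therefore does not measure how often changes as small as those of the members are recovered. Alternatives were library totals, DESeq2 1.42.0 size factors and test, other filters, a length and GC offset, and omission of each library.

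Members, gene lists, tests and alternatives were chosen with earlier results of these data known. Values in every library were given for members in both tables, the 4 largest called changes in each compartment and WARS1, WARS2, EPRS1, AIMP1, AIMP2, GARS1 and KARS1; from each further list at most 3 called genes were named, and others were named after their values were seen. A few genes are counted in the totals and are not reported here by name.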

Additional observations from a re-analysis of the deposited data

Results flagged for a closer look

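LARS2 and WARS1 were picked out by the interaction of set and treatment in edgeR, as were 58.8% of the 901 genes tested. For LARS2 the agonist minus antagonist log2 fold change was -0.42 (adjusted p = 0.00261), and for WARS1 it was -0.27 (adjusted p = 0.0103). For both genes, 3 of 3 agonist and 3 of 3 antagonist libraries lay below their own IgG libraries. In set 1, 49% of all tested genes had groups that did not overlap, and LARS2 did not pass there (edgeR adjusted p = 0.13). The agonist table holds genes selected for change on its own libraries. Neither these p-values nor the separate agonist groups are therefore independent evidence of a difference. The zero point is uncertain, and set and antibody cannot be told apart.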

How the results depend on the processing

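Of the 19 members called lower with the antagonist, 8 stayed past the threshold in all 12 alternatives, among them AIMP2, FARS2, GARS1, HARS1, KARS1, QARS1 and TARS1. Over all members and alternatives, 373 of 480 values kept their direction and side of the threshold. With direction kept, 63 lost a call and 18 gained one. The other 26 changed sign, among them AARS2 with the length and GC offset, which also passed there (edgeR adjusted p = 0.00845). The causes were not tested. The number of members lower was 8 with library totals and 12 with a minimum mean of 5 CPM, and 10 to 18 when 1 library was left out. Members higher numbered 2 with library totals, 2 with the 5 CPM minimum (all mitochondrial in both) and 0 to 2 with 1 library left out. Cytosolic enzymes lower numbered 6 with library totals and 8 to 13 with 1 library left out. Mitochondrial enzymes lower numbered 1 with library totals, 2 with DESeq2, 2 with the 5 CPM minimum, 8 with the length and GC offset, and 1 to 4 with 1 library left out; those higher numbered 2, 2 (library totals, 5 CPM minimum) and 0 to 2. All genes lower numbered 1597 with library totals and 1769 to 2601 with 1 library left out, and all genes higher 1374 to 2474. The cytosolic median was -0.14 with library totals and -0.18 with the 5 CPM minimum, and the mitochondrial median -0.10 with library totals. Estimates that changed sign were near zero in at least 1 setting, but some lay well away from zero in another. With library totals the estimates that changed sign were AARS1 (0.02), IARS1 (0.02), CARS2 (0.05), MARS1 (0.07) and VARS1 (0.07). With DESeq2 size factors or DESeq2 they were MARS1 (0.01) and VARS1 (0.01), and with the 5 CPM minimum CARS2 (0.02), MARS1 (0.03) and VARS1 (0.04). With the length and GC offset they were AARS2 (-0.15), EARS2 (-0.08), AIMP1 (0.03) and RARS2 (0.00). Without the offset these 4 stood at 0.04, 0.01, -0.21 and -0.19 in the same order. With 1 library left out CARS2 ranged from -0.04 to 0.00, EARS2 from -0.03 to 0.07, MARS1 from -0.03 to 0.03 and VARS1 from -0.09 to 0.07. The agonist values of WARS1 and LARS2 and their differences between antibodies kept direction and call in every alternative run. Both genes were listed in set 2 for change on those same libraries, so nothing is read from this. The count of 3 libraries per group limits precision. No paired analysis was possible because the columns carry no replicate numbers.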
